A study of Mus musculus with 15 samples.

Results

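The 9 macrophage genes described here were measured in the first branchial arch of the mouse embryo. They are Csf1r, Mrc1, Cx3cr1, C1qa, C1qb, Tyrobp, Fcer1g, Cd68 and Aif1, and every probe set annotated to 1 of these 9 symbols was taken. That gave 9 of the 18194 genes with a probe set of a single symbol, through 14 of the array's 45101 probe sets. The rule that took the probe sets used gene symbols and no measured value, but the 9 genes themselves were chosen with earlier results of these data known. The first branchial arch forms the jaws, its maxillary branch the upper jaw and its mandibular branch the lower jaw, and RNA was taken at E10.5, in days of gestation. The 15 arrays formed 5 groups of 3 by their title tags. These were the mandibular branch of Dlx5/6 mutants, the maxillary branch tagged KO, the wild-type (WT) mandibular branch, and wild-type maxillary branches tagged WT_MXA and WT_MXA2. The tags MNA and MXA are read here as the mandibular and maxillary branches that the labels' shared description names. That description was a plan that listed dlx2, dlx1/2 and Dlx5/6 mutants and foresaw pooling arches. No KO label names a gene, no label says how WT_MXA and WT_MXA2 differ, and strain, sex and control genotype beyond wild type were not stated in the labels. Nor do they tell whether the arrays of a group are separate embryos, litters or pools, and p values here cover the spread between these arrays alone.

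Macrophages enter the embryo from the yolk sac before the bone marrow exists, and settle in most tissues as round or branched phagocytes that clear dying cells. They depend on the receptor Csf1r and its ligands Csf1 and Il34, and they transmit many surface signals through small adaptor proteins with an ITAM, a tyrosine motif that recruits the kinase Syk. They are also the main source of the complement component C1q in many tissues, and the ETS factor Spi1 (PU.1) controls much of their gene expression.

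The labels' genotypes were read against the Dlx genes first. Dlx5 had a signal of 7.96 to 13.9 on Dlx5/6 mutant arrays, against 690 to 770 on WT mandibular arrays, and Dlx6 had 2.28 to 5.07 against 196 to 298. Dlx2 had 3.21 to 3.56 on KO arrays, against 402 to 442 on WT_MXA2 arrays, and Dlx1 had 199 to 222 against 688 to 746. Dlx5 was lower there too, at 27.3 to 39.3 on KO arrays, against 97.5 to 145 on WT_MXA2 arrays. Arch mesenchyme markers (8 genes) summed to 7055 or more on every array. The bacterial dap spike-in split the arrays into a set of 9 (Dlx5/6 mutant, WT mandibular and WT_MXA arrays, 496 to 583) and a set of 6 (KO and WT_MXA2 arrays, 3985 to 4469). The comparisons below therefore stay within a set, and a difference between WT_MXA2 and WT_MXA cannot be told apart from the set. The median signal per array was 26.6 to 33.4, and each array correlated with its group mates at 0.984 to 0.989.

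All 9 genes were at low to moderate signal. Csf1r was the brightest, with group means of 114 to 274, and Aif1 the dimmest, with group means of 5.04 to 20.4. Signals here are deposited linear intensities, and they are compared between arrays, not between genes. No detection calls were used. For orientation, probe sets for the bacterial trpn gene, which no mouse cell carries, averaged 1.39 to 7.37 per array. Tests used quantile-normalized log2(signal + 32), on which scale changes of dim genes are understated. Below, ± after a mean signal is the SD over 3 arrays, ± beside a log2 change its limma SE and a gene is called at an adjusted p under 0.05. Folds are ratios of mean deposited signals. Each gene is represented by its brightest kept probe set. In bulk RNA such as this, fewer macrophages and less RNA per macrophage cannot be told apart.

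The 250 bases before the annotated start of the gene were read from RefSeq on build GRCm38.p6. They were read because most of the 9 genes had log2 changes of the same sign within each comparison (below). Promoters of 6 of the 9 genes were searched. Those of Csf1r, C1qa and Tyrobp were left out, which does not show that RefSeq lacks them. Whether the promoter of Csf1r holds a match was not tested. The letters GAGGAA, the core of PU.1-type ETS sites, were searched on both strands, where the reverse strand reads TTCCTC. They occurred in 4 of these 6 promoters, against 23.3% of 32851 mouse promoters of the same length, a count that left out no chromosome. The promoters of Mrc1 and C1qb hold a match and that of Cx3cr1 holds none, and the match is in capitals. A match is a string of letters and not a measured binding site. Mrc1 lies at chr2:14229164-14229413 on the plus strand, C1qb at chr4:136886201-136886450 on the minus strand and Cx3cr1 at chr9:120068297-120068546 on the minus strand.
Mrc1: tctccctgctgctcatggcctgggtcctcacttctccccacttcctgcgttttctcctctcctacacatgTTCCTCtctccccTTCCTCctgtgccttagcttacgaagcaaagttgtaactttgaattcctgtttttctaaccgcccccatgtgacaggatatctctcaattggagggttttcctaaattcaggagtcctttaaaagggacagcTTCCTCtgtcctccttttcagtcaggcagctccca
C1qb: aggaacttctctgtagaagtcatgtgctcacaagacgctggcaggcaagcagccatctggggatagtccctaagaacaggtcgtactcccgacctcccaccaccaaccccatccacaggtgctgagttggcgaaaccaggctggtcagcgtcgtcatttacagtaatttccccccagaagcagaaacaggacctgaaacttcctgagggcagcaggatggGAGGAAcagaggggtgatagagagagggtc
Cx3cr1: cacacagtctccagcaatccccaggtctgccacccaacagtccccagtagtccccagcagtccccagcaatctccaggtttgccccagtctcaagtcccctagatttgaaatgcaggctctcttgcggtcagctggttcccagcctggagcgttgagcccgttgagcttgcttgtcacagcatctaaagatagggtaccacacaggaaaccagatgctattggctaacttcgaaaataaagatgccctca
The 3 matches of Mrc1 began 180, 167 and 35 bases before the start, all on the reverse strand, and the match of C1qb began 30 bases before it. Cd68 had 1 match at 225 bases and Aif1 1 match at 7 bases, and Fcer1g had none.

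In the mandibular branch of Dlx5/6 mutants, the macrophage receptor gene Csf1r rose 1.63-fold over WT, and the other 8 genes had positive log2 changes that did not pass the test. The 9 changes ran from 0.10 to 0.59 with a median of 0.39, beside a median of -0.01 over 13934 genes. The size of this median depended on the pseudocount, at 0.53 with the smaller and 0.17 with the larger one tried. Csf1r was the 1 called gene, where 1.64% of all genes were called higher. The 3 mutant arrays lay above the 3 WT arrays for 9 of the 14 probe sets, against 9.71% of all kept probe sets, and below them for 0. This comparison asks what the mandibular arch expresses when Dlx5 and Dlx6, which set its ventral identity, are lost.

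**Figure D1:**
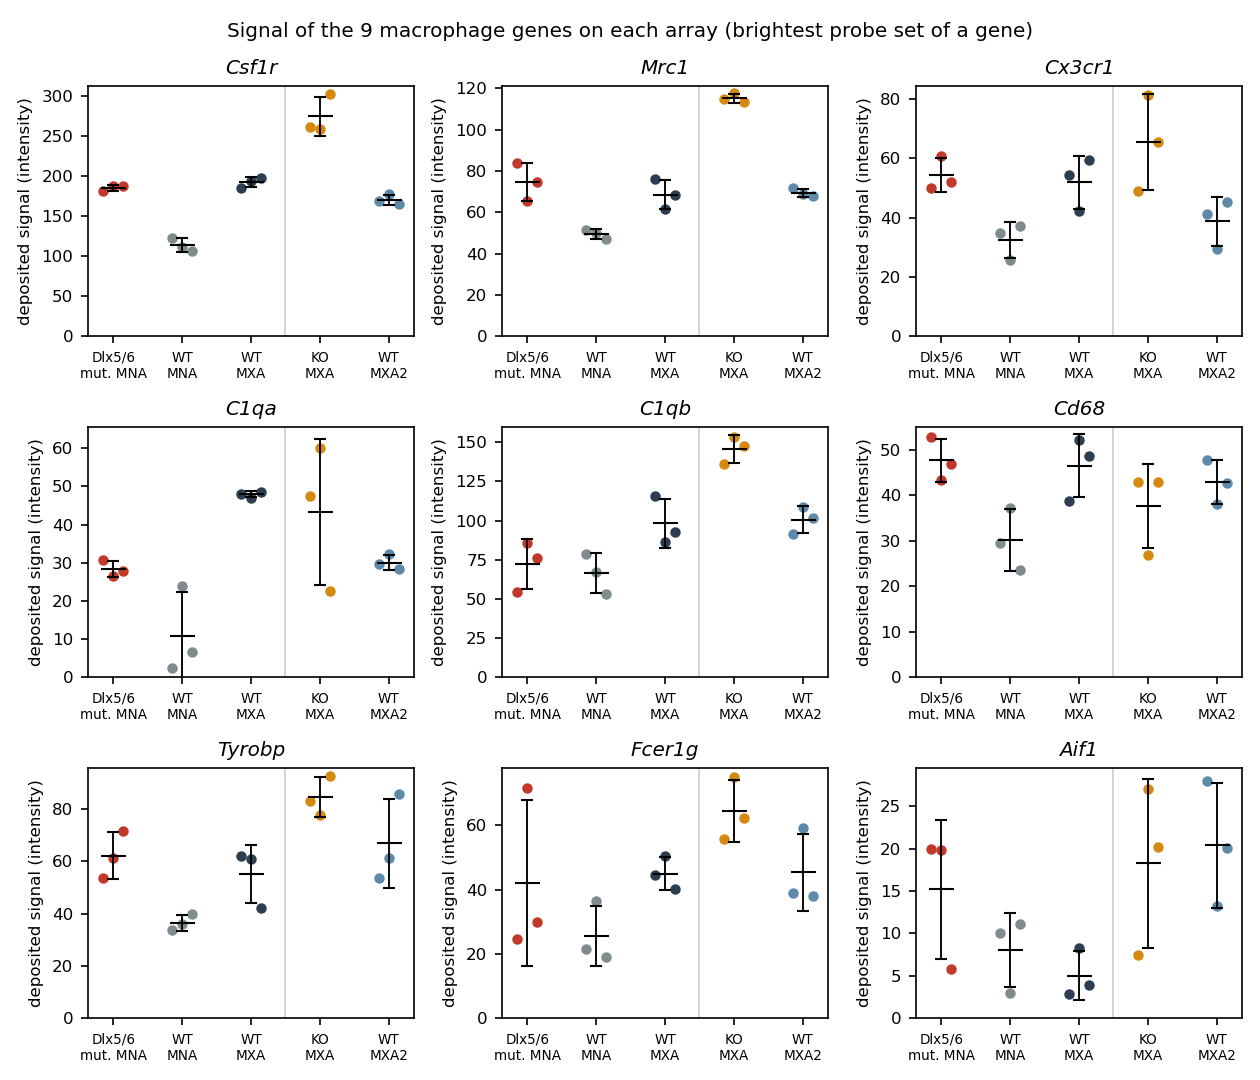
Deposited signal (linear intensity, y axis from 0) of the brightest probe set of each of the 9 genes, with a point per array, the mean as a line and the SD as bars, for the 5 groups (x axis); the grey line divides the 2 array sets. For Csf1r the Dlx5/6 mutant arrays lie above the WT mandibular arrays, at 181 to 188 against 107 to 123, and the KO arrays lie above the WT_MXA2 arrays, at 259 to 303 against 165 to 177.

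Among the receptors, Csf1r, the receptor tyrosine kinase for Csf1 and Il34, had a signal of 181, 188 and 187 on the Dlx5/6 mutant arrays, against 123, 111 and 107 on the WT mandibular arrays. The groups were well apart, and the mutant arrays differed among themselves by less than the WT arrays did. The log2 change was 0.59 ± 0.09 (95% interval 0.40 to 0.79, limma adjusted p = 0.0004), and it stayed called in all 21 other settings and left-out arrays tried. A second probe set of Csf1r, 1419873_s_at, had 60.8 ± 10.4 in mutants and 33.9 ± 13.3 in WT, with arrays that did not overlap and a log2 change of 0.51 (limma adjusted p = 0.11). The third, 1423593_a_at, had 59.3 ± 14.6 in mutants and 49.1 ± 16.2 in WT, with overlapping arrays and a log2 change of 0.18 (limma adjusted p = 0.72). The call for Csf1r thus rests on 1 of its 3 probe sets.

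Mrc1, the mannose receptor of tissue macrophages, which endothelium of some vessels also makes, had 83.7, 65.6 and 74.9 on mutant arrays, against 51.4, 50.1 and 46.9 on WT arrays. All mutant arrays were higher, yet the log2 change of 0.39 ± 0.12 missed the threshold (limma adjusted p = 0.079). Cx3cr1, the receptor of the chemokine Cx3cl1, had 49.9, 60.9 and 52.1 in mutants, against 34.8, 25.7 and 37.0 in WT. These groups were apart too, with a log2 change of 0.41 ± 0.15 (limma adjusted p = 0.193), while its dimmer probe set 1450019_at overlapped (log2 change 0.11).

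The complement genes C1qa and C1qb encode chains of C1q, which tags debris for uptake. C1qa had 30.6, 26.6 and 27.8 on mutant arrays, against 2.35, 23.9 and 6.55 on WT arrays. The mutant arrays were alike, and 2 of the WT arrays were at the level of the trpn control. The log2 change was 0.52 ± 0.19 (limma adjusted p = 0.187), and 0.74 (adjusted p = 0.042) without WT replicate 2, the highest of the WT arrays.

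C1qb was read by 3 probe sets that did not move alike. The brightest, 1434366_x_at, had 54.5, 85.8 and 76.3 in mutants, against 78.7, 67.1 and 53.5 in WT, so the groups overlapped at a log2 change of 0.10 ± 0.14 (limma adjusted p = 0.85). Probe set 1437726_x_at had 65.8, 61.8 and 45.5 in mutants, against 37.3, 22.8 and 36.9 in WT, with a log2 change of 0.47 (adjusted p = 0.076), and 1417063_at had a log2 change of 0.41 (adjusted p = 0.12). Both of these had arrays that did not overlap. Identifiers ending in _x_at mark probes that may also read other transcripts.

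Tyrobp (DAP12) and Fcer1g are the ITAM adaptors. Tyrobp had 53.5, 61.4 and 71.6 on mutant arrays, against 33.8, 35.9 and 39.8 on WT arrays, a log2 change of 0.45 ± 0.14 (limma adjusted p = 0.109). Its groups were apart, whereas those of Fcer1g overlapped. Fcer1g had 24.7, 71.6 and 30.02 in mutants, against 21.6, 36.4 and 19.0 in WT, a log2 change of 0.31 ± 0.19 (limma adjusted p = 0.51). Without mutant replicate 2, which gave the high value, the change was 0.05.

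Cd68, a glycoprotein of the phagocyte lysosome, had 52.9, 43.4 and 46.9 on mutant arrays, against 29.7, 37.2 and 23.7 on WT arrays. Its groups were apart at a log2 change of 0.35 ± 0.15 (limma adjusted p = 0.295). Aif1 (Iba1), a cytoplasmic protein that bundles actin at membrane ruffles, had 19.9, 19.9 and 5.79 in mutants, against 10.0, 3.04 and 11.2 in WT. Its groups overlapped near the background of the array, and the log2 change was 0.21 ± 0.19 (limma adjusted p = 0.72).

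**Figure D2:**
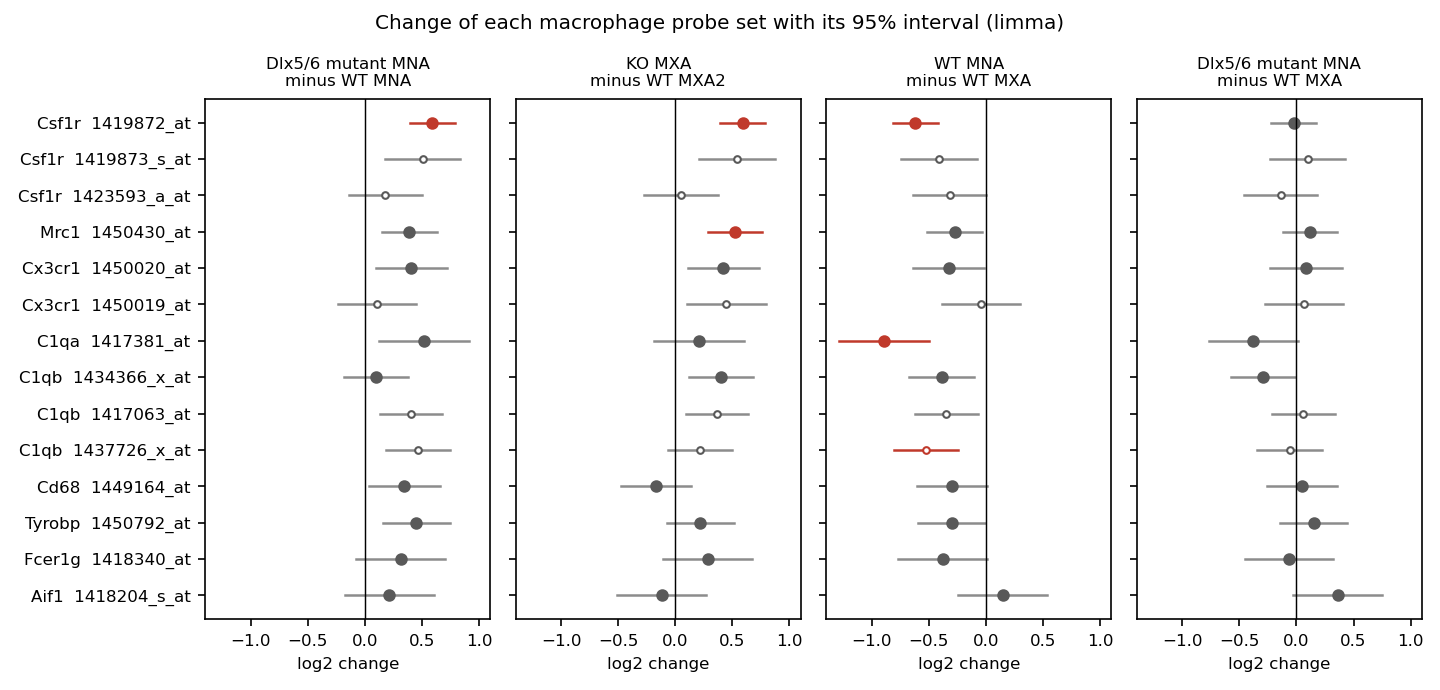
Log2 change (x axis, on the log2(signal + 32) scale) of each of the 14 probe sets (rows) with its 95% interval from limma in 4 comparisons; large filled points are the brightest probe set of a gene, small open points the others, and red marks an adjusted p under 0.05. Csf1r 1419872_at is called in 3 comparisons, at 0.59, 0.59 and -0.62, and no probe set is called between Dlx5/6 mutant mandibular and WT_MXA maxillary arrays.

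In the KO maxillary branch, Csf1r rose 1.61-fold and Mrc1 1.66-fold over WT_MXA2. Of the other 7 genes, 5 had positive and 2 (Cd68 and Aif1) negative log2 changes that did not pass the test, and the median over the 9 was 0.28, beside -0.0021 over all genes. Of all genes, 0.682% were called higher. Of the 14 probe sets, 8 had KO arrays all above the WT_MXA2 arrays, against 8.41% of all kept probe sets.

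Csf1r had 261, 259 and 303 on KO arrays, against 169, 177 and 165 on WT_MXA2 arrays. No arrays overlapped, and the log2 change was 0.59 ± 0.09 (95% interval 0.39 to 0.78, limma adjusted p = 0.0011), called in all 22 other settings. As in the mandibular comparison, 1419873_s_at differed by 0.54 (limma adjusted p = 0.141) without overlap, and 1423593_a_at overlapped, at 0.05 (adjusted p = 0.95). Mrc1 had 115, 118 and 114 in KO, against 71.7, 68.8 and 67.7 in WT_MXA2, and both groups were tight. Its log2 change was 0.52 ± 0.12 (limma adjusted p = 0.0259). Leaving out any 1 of the 6 arrays kept its change at 0.51 to 0.54 but lost the call (highest adjusted p = 0.092, without KO replicate 2), as did testing all probe sets with no filter on low values (adjusted p = 0.0528).

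The third receptor, Cx3cr1, had 49.1, 81.5 and 65.5 on KO arrays, against 41.3, 29.5 and 45.4 on WT_MXA2 arrays, a log2 change of 0.42 ± 0.15 (limma adjusted p = 0.268). Its arrays did not overlap, but the KO arrays were widely spread. C1qb 1434366_x_at had 136, 153 and 148 in KO, against 91.5, 109 and 102 in WT_MXA2, a log2 change of 0.40 ± 0.14 (limma adjusted p = 0.23). All 3 C1qb probe sets had KO arrays above the WT_MXA2 arrays, with log2 changes of 0.21 to 0.40. C1qa did not share this, with 47.5, 59.99 and 22.5 in KO, against 29.7, 32.2 and 28.3 in WT_MXA2, and KO replicate 3 below every WT_MXA2 array (log2 change 0.20 ± 0.19, adjusted p = 0.79).

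Tyrobp had 83.0, 77.8 and 92.8 on KO arrays, against 53.5, 61.1 and 85.9 on WT_MXA2 arrays, a log2 change of 0.22 ± 0.14 (limma adjusted p = 0.66). Fcer1g had 55.8, 74.8 and 62.3 in KO, against 38.9, 59.0 and 38.03 in WT_MXA2, a log2 change of 0.28 ± 0.19 (limma adjusted p = 0.67). For both adaptors a single high WT_MXA2 array, replicate 3 for Tyrobp and replicate 2 for Fcer1g, reached into the KO range. Cd68 had 43.0, 26.9 and 43.0 in KO, against 47.8, 38.2 and 42.7 in WT_MXA2 (log2 change -0.17 ± 0.15, limma adjusted p = 0.77). Aif1 had 7.45, 27.1 and 20.2 in KO, against 27.9, 13.2 and 20.0 in WT_MXA2 (log2 change -0.12 ± 0.19, limma adjusted p = 0.90). Neither of these 2 genes separated the groups.

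The effect of the Dlx5/6 mutation and that of the KO were then compared by the difference of their log2 changes, which no shared array links. No member was called (0 of 9 genes by limma, where 1.49% of all genes were called, and 1 probe set had an unadjusted p under 0.05). For Csf1r the difference was 0.0040 ± 0.13 (95% interval -0.27 to 0.28), an interval that holds differences about as large as its bounds in either direction. For Mrc1 it was -0.13 ± 0.16 (95% interval -0.47 to 0.21). Cd68 had the lowest p, with a log2 difference of 0.51 (95% interval 0.08 to 0.95, limma adjusted p = 0.38), positive because its log2 change was 0.35 in Dlx5/6 mutants and -0.17 in the KO.

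Between the wild-type branches, Csf1r was lower in the mandibular branch, at 0.59 of the WT_MXA signal, and C1qa was called lower, with 2 of its 3 mandibular arrays at the level of the trpn control, so that no fold is given. All genes but Aif1 had negative log2 changes, with a median of -0.33 over the 9 beside 0.0019 over all genes. The 7 macrophage markers outside the 9 genes, named below, had a median of -0.04, with 3 above 0 and 4 below. Of all genes, 2.15% were called lower. The WT mandibular arrays lay below the WT_MXA arrays for 11 of the 14 probe sets, against 9.37% of all kept probe sets. This comparison shares the WT mandibular arrays with the Dlx5/6 comparison, so a low WT mandibular array moves both.

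Csf1r had 123, 111 and 107 on WT mandibular arrays, against 185, 194 and 198 on WT_MXA arrays. The log2 change was -0.62 ± 0.09 (95% interval -0.81 to -0.42, limma adjusted p = 0.0002), called in all 22 other settings, and its 2 dimmer probe sets differed by -0.41 and -0.32 without a call. C1qa had 2.35, 23.9 and 6.55 in the mandibular branch, against 48.1, 47.1 and 48.6 in WT_MXA. The WT_MXA arrays were nearly equal, and no mandibular array came near them. The log2 change was -0.89 ± 0.19 (limma adjusted p = 0.0069), with adjusted p = 0.0587 without mandibular replicate 1 and adjusted p = 0.0769 against WT_MXA2.

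One of the 3 C1qb probe sets, 1437726_x_at, was also called, with 37.3, 22.8 and 36.9 on WT mandibular arrays, against 69.5, 51.8 and 69.6 on WT_MXA arrays (log2 change -0.53 ± 0.14, limma adjusted p = 0.0359), where 1.51% of all kept probe sets were called lower. The brightest C1qb probe set, which stands for the gene, had a log2 change of -0.39 ± 0.14 (adjusted p = 0.17). Mrc1 had 46.9 to 51.4 in the mandibular branch, against 61.5 to 75.9 in WT_MXA (log2 change -0.27 ± 0.12). Cx3cr1 had 25.7 to 37.0 against 42.1 to 59.4 in the same order (log2 change -0.33 ± 0.15), and Tyrobp 33.8 to 39.8 against 42.3 to 62.0 (log2 change -0.30 ± 0.14). The arrays of the branches did not overlap for these 3 genes. Fcer1g differed by -0.38 and Cd68 by -0.30, also without overlap. None of these 5 passed the test, with limma adjusted p of 0.31 to 0.44. Aif1 overlapped, at 0.15.

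Set against WT_MXA, none of the 9 genes was called in the Dlx5/6 mutant mandibular branch, and their log2 changes ran in both directions. Of the 9 genes 0 were called by limma, 1 probe set had an unadjusted p under 0.05, and 0.832% of all genes were called. The median log2 change was 0.05, with 5 genes above 0 and 4 below. Csf1r had a log2 change of -0.03 ± 0.09 (95% interval -0.22 to 0.17), which leaves out the sizes of -0.62 and 0.59 seen in the other comparisons of these arrays. C1qa stood lowest, at -0.38 ± 0.19 (limma adjusted p = 0.61), with every mutant array (26.6 to 30.6) below every WT_MXA array (47.1 to 48.6). C1qb 1434366_x_at was also lower on every mutant array (54.5 to 85.8) than on any WT_MXA array (86.5 to 116), with a log2 change of -0.29 ± 0.14 (limma adjusted p = 0.56). Aif1 stood highest, at 0.36 ± 0.19 (limma adjusted p = 0.63), with overlapping arrays. These 3 comparisons within 1 array set share arrays, and their values are given side by side only.

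By group mean, Csf1r stood in the order KO maxillary 274 ± 24.4, WT_MXA 192 ± 6.53, Dlx5/6 mutant mandibular 185 ± 3.80, WT_MXA2 171 ± 6.19 and WT mandibular 114 ± 8.59. The WT_MXA and Dlx5/6 mutant arrays overlap, and steps between the array sets cannot be told apart from the set. Mrc1 stood at 115 ± 2.12 in KO, 74.7 ± 9.08 in Dlx5/6 mutants, 69.4 ± 2.07 in WT_MXA2, 68.7 ± 7.19 in WT_MXA and 49.5 ± 2.33 in WT mandibular arrays. The middle 3 of these groups overlap. The summed signal of the 9 genes was 551 to 623 in Dlx5/6 mutants, 798 to 878 in KO, 344 to 390 in WT mandibular, 602 to 627 in WT_MXA and 572 to 595 in WT_MXA2 arrays.

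Ligands, partners and regulators of these genes had 0 to 2 calls per list and comparison. The lists were chosen with earlier results of these data known, and counts below leave the 9 genes out. In either direction, 3.24% of all genes were called in the Dlx5/6 comparison, 1.3% in the KO comparison and 3.75% between the wild-type branches. At these shares lists of this length hold few calls whatever their genes, so the counts below say nothing particular about the lists. Of the 3 ligands, 0 were called by limma in the Dlx5/6, KO or wild-type comparison (1, 1 and 0 at an unadjusted p under 0.05). Csf1 had log2 changes of 0.36 in Dlx5/6 mutants, 0.37 in KO and -0.22 between the wild-type branches, Il34 had 0.13, -0.30 and -0.20, and the Cx3cr1 ligand Cx3cl1 had -0.14, 0.20 and 0.17 in the same order. None of the 11 kept transcription factors was called (1, 3 and 0 at an unadjusted p under 0.05), and their medians were 0.03, 0.08 and -0.03. Spi1 had log2 changes of -0.01, 0.34 and 0.13.

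Of 17 kept complement and ITAM partners 0 were called by limma (3, 2 and 2 at an unadjusted p under 0.05, in the same order), with medians of 0.15, 0.04 and -0.09. C1qc, the third chain of C1q, had log2 changes of 0.31, 0.04 and -0.14. Trem2, a receptor that signals through Tyrobp, had -0.49, -0.20 and 0.24, opposite in sign to Tyrobp in all 3 comparisons, without a call. Its signal was low and spread widely, at 4.58 to 15.5 on Dlx5/6 mutant arrays, against 11.2 to 38.1 on WT mandibular arrays.

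Of 27 kept genes of the phagocyte surface and lysosome, 20 were above 0 in Dlx5/6 mutants, 24 in KO and 10 in the mandibular against the maxillary branch, with medians of 0.16, 0.14 and -0.09. In Dlx5/6 mutants the 1 called gene of this list fell. It was Axl, a receptor for dying cells that mesenchyme also makes, at 111 ± 13.1 in mutants and 169 ± 9.19 in WT (log2 change -0.47, limma adjusted p = 0.0169). Between wild-type branches Axl was called higher in the mandibular branch (0.60, limma adjusted p = 0.0012) and the lysosomal protease gene Ctsb lower (-0.45, limma adjusted p = 0.0003), while the KO had 0 calls (9 at an unadjusted p under 0.05). Adgre1 (F4/80), a classic macrophage surface marker, had log2 changes of 0.01, 0.26 and 0.15 and was not called.

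Of 15 kept genes common to leukocytes, 13, 11 and 3 were above 0 in the same order, with medians of 0.19, 0.17 and -0.14. Arhgdib, a gene used mainly by blood cells, was called higher in KO, at 304 ± 11.5 in KO and 191 ± 3.34 in WT_MXA2 (log2 change 0.59, limma adjusted p = 0.0026), and lower in the WT mandibular branch (-0.42, limma adjusted p = 0.0224). Ptprc (CD45), the pan-leukocyte phosphatase, had 52.1 to 77.8 in KO, against 21.0 to 40.9 in WT_MXA2. Its arrays did not overlap there, with a log2 change of 0.58 (limma adjusted p = 0.124), and it had 0.12 in Dlx5/6 mutants and -0.27 between wild-type branches.

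**Figure D3:**
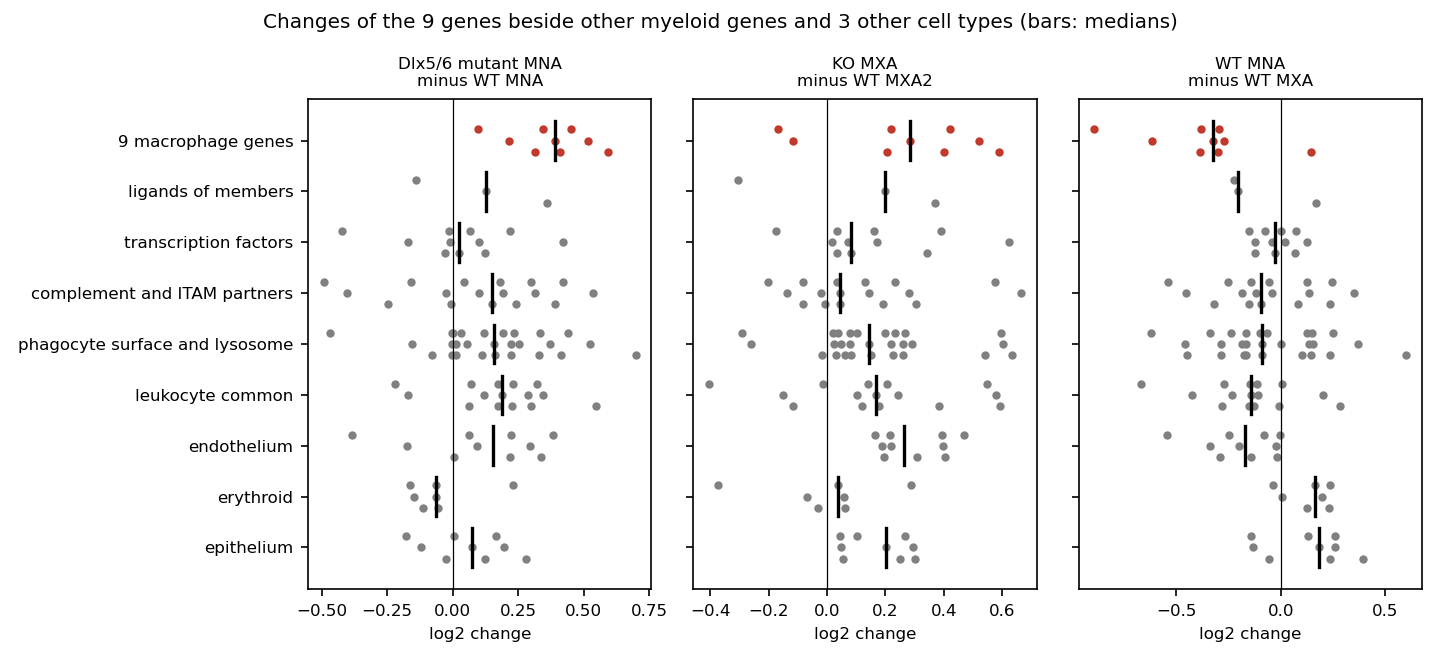
Log2 change of each kept gene (points, x axis) of the 9 macrophage genes (red), 5 lists of other myeloid genes and 3 lists of other cell types (rows), with the median as a black bar, in 3 comparisons. The medians of the 9 genes are 0.39, 0.28 and -0.33, and those of the leukocyte list 0.19, 0.17 and -0.14.

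Markers of other cells moved in part with the same groups. All 10 endothelial markers were kept, and 8, 10 and 0 of them were above 0 in the Dlx5/6, KO and wild-type comparisons, with medians of 0.15, 0.26 and -0.17. Plvap was called higher in Dlx5/6 mutants (0.38, limma adjusted p = 0.0268) and lower in the WT mandibular branch (-0.54, adjusted p = 0.0009), and Emcn was called higher in KO (0.47, adjusted p = 0.0096). Erythroid markers (7 kept) had medians of -0.06, 0.04 and 0.16, and epithelial markers (9 kept) medians of 0.07, 0.20 and 0.18. The 10 endothelial markers summed to 1322 to 1617 on Dlx5/6 mutant, 1690 to 1950 on KO, 1237 to 1387 on WT mandibular, 1442 to 1740 on WT_MXA and 1322 to 1430 on WT_MXA2 arrays. Arch mesenchyme markers (8 kept) had medians of 0.23, -0.06 and -0.34. They had 3 called higher and 1 lower in Dlx5/6 mutants, 2 higher and 1 lower in KO, and 1 higher and 5 lower in the WT mandibular branch. They summed to 8409 to 8835 on Dlx5/6 mutant, 8218 to 8592 on KO, 7055 to 7712 on WT mandibular, 8870 to 9426 on WT_MXA and 8677 to 9058 on WT_MXA2 arrays. Their sums thus separated the mutant from the WT mandibular arrays, and the WT mandibular from the WT_MXA arrays, in the same direction as the sums of the 9 genes. The KO sums lay below all WT_MXA2 sums, the opposite direction to the 9 genes. The mean log2 level of the same 8 mesenchyme markers overlapped, however, at 9.40 to 9.50 on KO and 9.41 to 9.44 on WT_MXA2 arrays. Of these markers 4 were above 0 and 4 below in KO. The part of the endothelial and mesenchymal markers in the results for Mrc1 and the other 8 genes was not tested.

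Sensory neuron markers (9 genes) summed to 512 to 592 in Dlx5/6 mutants, 886 to 925 in KO, 514 to 572 in WT mandibular, 2651 to 2728 in WT_MXA and 1070 to 1115 in WT_MXA2 arrays. They were thus lower in the WT mandibular branch as well (9 of 9 called), and their part in the difference of Csf1r and C1qa was not tested. Of 12 granulocyte and mast cell markers, which could share Fcer1g, 5 were kept and 0 called by limma in these 3 comparisons (0 at an unadjusted p under 0.05), and the mast cell genes Cpa3, Cma1 and Ms4a2 reached at most 29.7. Of 7 megakaryocyte markers on the array 6 were kept and 0 called (1, 0 and 1 at an unadjusted p under 0.05). Of 9 lymphocyte markers on the array 2 were kept, and Cd8a, at 26.8 to 37.8 in Dlx5/6 mutants, 4.26 to 6.37 in WT mandibular and 20.9 to 40.2 in WT_MXA arrays, was called in both comparisons that use the WT mandibular arrays (limma adjusted p = 0.0124 and 0.0173). Its WT mandibular signals lie within the range of the trpn control, so its differences have no measured size, and its probe set is 1 of those ending in _x_at.

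**Figure D4:**
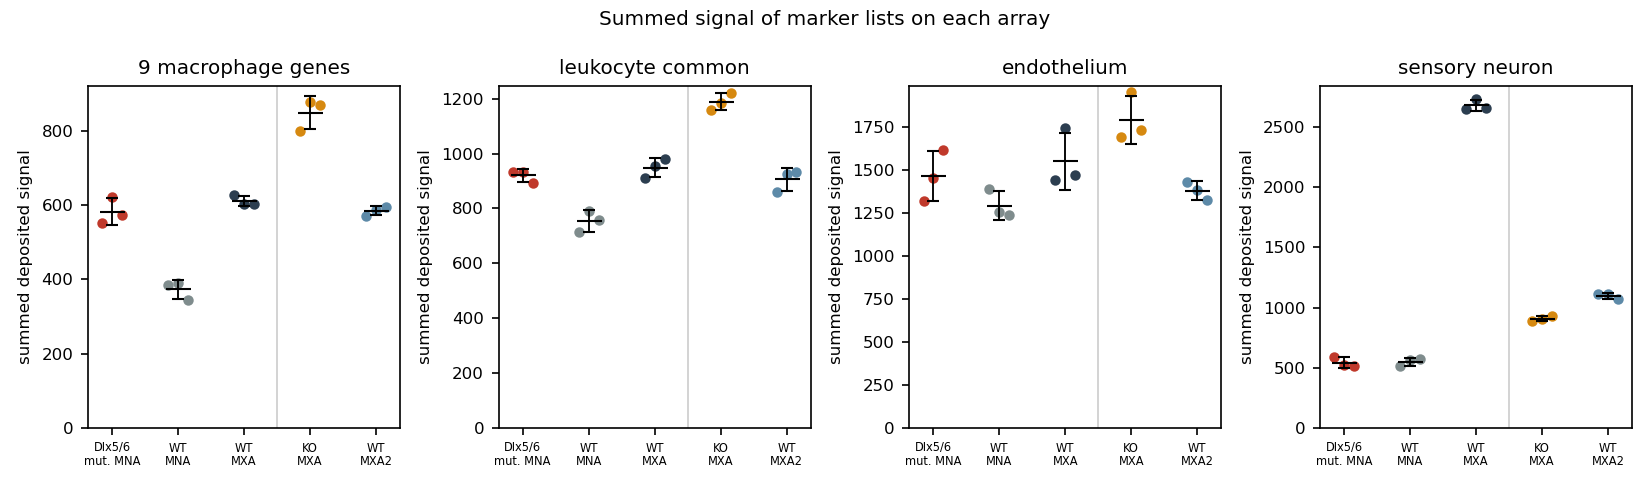
Summed deposited signal (y axis, from 0) of the 9 macrophage genes and of the leukocyte, endothelial and sensory neuron lists on each array (points), with mean and SD, for the 5 groups (x axis); the grey line divides the array sets. The 9 genes sum to 551 to 623 on Dlx5/6 mutant arrays, against 344 to 390 on WT mandibular arrays, and to 798 to 878 on KO arrays, against 572 to 595 on WT_MXA2 arrays.

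Within groups the 9 genes correlated with both signs. Across the 15 arrays, deviations from the group means correlated above 0 in 16 of 36 gene pairs, with a median r of -0.02 and a range of -0.65 to 0.58, as a description over arrays that share their scaling and, in part, their array set. The genes whose level followed the mean of the 9 most closely over both array sets were taken by the smaller of the Pearson correlations over the 9 and the 6 arrays. They were Rai14 (0.986), Col1a2 (0.955), Lss (0.950), Ipo4 (0.943), Ccnd2 (0.934), App (0.933), Has2 (0.929) and Igf2bp1 (0.927), and none is in the myeloid lists. These correlations include the differences between groups. For deviations from group means they were 0.80 for Rai14, 0.71 for Igf2bp1 and -0.02 to 0.52 for the other 6.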

How the data were processed

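The values were linear intensity values deposited by the authors, with a value for each probe set of a mouse Affymetrix array and 3 arrays for each of 5 groups. Their summary method and background correction are not given in the sources used here. Deposited intensities had a 2%-trimmed mean of 150.0 on every array, so they had been scaled before deposition, and 0 columns were left unmapped. Values were converted to log2(value + 32) and quantile normalized. The filter left 31643 of 45101 probe sets, after 64 controls and those not exceeding the 40th percentile of an array on 3 or more arrays were dropped. The platform table gave 1 symbol for 34945 probe sets, several for 932 and none for 9160. The brightest kept probe set stood for each of 13934 genes.

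A limma model (limma 3.58.1, R 4.3.3) with a mean per group, 10 residual degrees of freedom and an intensity trend gave two-sided p values, adjusted by Benjamini and Hochberg over kept probe sets, with 0.05 as threshold. The number of arrays limits precision (median SE 0.148). The steps were tested on simulated data. Same-numbered arrays had residual correlations of -0.10 to 0.08 over 30 pairs, so numbers were not read as pairs.

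The 9 genes, the lists and the control of each comparison were chosen with earlier results of these data known. Named were all 9 genes, 8 fixed partners (Csf1, Il34, Cx3cl1, C1qc, Trem2, Spi1, Ptprc, Adgre1), up to 6 called genes of each myeloid list, up to 3 of other lists, the Dlx genes and the 8 genes most like the mean of the 9. Alternatives were other scalings, pseudocounts, filters, variance models, thresholds, probe set choices, a replicate block, the other WT maxillary control and leaving out each array. Promoters were RefSeq sequences of GRCm38.p6.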

Additional observations from a re-analysis of the deposited data

Results flagged for a closer look

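Mertk, a receptor for dying cells on macrophages and other phagocytes, differed between the mutant effects by a test of the difference itself. Its signal was 301 to 374 on Dlx5/6 mutant arrays, against 233 to 286 on WT mandibular arrays (log2 change 0.37), and 201 to 214 on KO arrays, against 243 to 276 on WT_MXA2 arrays (log2 change -0.29). The difference of the log2 changes was 0.66 (SE 0.15, limma adjusted p = 0.0273). Mertk was picked as the 1 call for this difference among the myeloid lists, which held 3, 11, 17, 27 and 15 kept genes outside the 9. Of all genes, 1.49% were called, a share at which lists of this length hold few calls whatever their genes. For the 9 macrophage genes this difference passed the threshold in no case.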

How the results depend on the processing

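Csf1r was called in the Dlx5/6, KO and wild-type branch comparisons under every alternative run. The count of the 9 genes called in KO against WT_MXA2 was 1 in place of 2 under common median scaling, with no filter, with the compared groups alone, at adjusted p under 0.01 and at 1.5-fold or more, in each case because Mrc1 was lost. In Dlx5/6 mutants it was 2 in place of 1 with a 60th percentile filter, no intensity trend or array weights, through Mrc1, and between wild-type branches 1 in place of 2 with the 60th percentile filter, which drops C1qa. Against the other WT maxillary control, which lies in the other array set, C1qb gained a call in KO (adjusted p = 0.0312), and between wild-type branches C1qb (0.0362) and Tyrobp (0.0295) gained and C1qa lost a call, for 3 called genes in each comparison. The median log2 change of the 9 genes ran over these alternatives from 0.17 to 0.53 (Dlx5/6), 0.13 to 0.41 (KO) and -0.48 to -0.14 (wild-type branches). The smallest size of each came with the larger pseudocount, the one alternative that moved these medians by over 1.5 times. Leaving out single arrays gave 1 to 2 (Dlx5/6), 1 (KO), 1 to 2 (wild-type) and 0 called genes in the other comparisons.

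Probe sets called numbered 841 (Dlx5/6), 289 (KO), 835 (wild-type branches), 188 (Dlx5/6 against WT_MXA) and 346 (difference of effects). In the same order, adjusted p under 0.01 gave 394, 152, 530, 107 and 194. At 1.5-fold or more, on the log2 scale of the tests, there were 336, 135, 429 and 123 in the first 4. Without the intensity trend there were 452 (Dlx5/6), 172 (KO), 125 (Dlx5/6 against WT_MXA) and 219 (difference). With the other WT maxillary control, which lies in the other array set, there were 3310 (KO), 3318 (wild-type), 3536 (Dlx5/6 against WT_MXA) and 2246 (difference), and array set and group cannot be told apart there. Left-out arrays gave 502 to 654, 176 to 221, 609 to 693, 121 to 147 and 261 to 309. The replicate block gave 779, 260, 787, 177 and 333 probe sets and 1, 2, 2, 0 and 0 called genes, and changed no call of the 9 genes.

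Reversals touched only log2 changes that were not called, and the cause was not tested. With the other WT maxillary control these were Aif1 (0.39 in KO, -0.36 between wild-type branches, -0.15 in Dlx5/6 against WT_MXA, -0.18 for the difference), C1qa in KO (-0.16), Csf1r (0.092) and Tyrobp (-0.036) in Dlx5/6 against WT_MXA, and Cx3cr1 for the difference (0.22). For the difference, Csf1r was -0.017 under deposited scaling and -0.042 at the larger pseudocount, Fcer1g -0.0030 and, with array weights, -0.067, Cx3cr1 0.0019 under median scaling and 0.039 with array weights, and C1qb 0.25 for the probe set with the largest SD. Without _x_at and _s_at probe sets, a setting chosen after seeing the data, C1qb was 0.040 for the difference and 0.061 in Dlx5/6 against WT_MXA. Left-out arrays reversed Aif1 in KO, C1qb in Dlx5/6 mutants, Cd68, Cx3cr1 and Fcer1g in Dlx5/6 against WT_MXA, and Csf1r, Cx3cr1 and Fcer1g for the difference. Over left-out arrays they ran from -0.22 to 0.027 (Aif1), -0.012 to 0.22 (C1qb), -0.015 to 0.096 (Cd68), -0.010 to 0.14 (Cx3cr1), -0.33 to 0.097 (Fcer1g), and for the difference from -0.038 to 0.074 (Csf1r), -0.14 to 0.099 (Cx3cr1) and -0.24 to 0.19 (Fcer1g). Of the single-gene values under alternatives, 953 kept direction and call, 8 gained and 13 lost a call, and 41 reversed.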
